A study of Mus musculus with 2 samples.

Results

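The cytosolic ribosomal protein genes encode the proteins of the large (Rpl) and small (Rps) subunits of the ribosomes that translate nuclear messages. They were taken by name, as every gene whose symbol starts with Rpl or Rps and a digit plus Rpsa, Rplp0, Rplp1 and Rplp2, without the Rps6k kinases, pseudogene rows marked -ps and genes with under 50 UMIs over both libraries. This gave 84 of the 31053 genes listed, 50 named for the large and 34 for the small subunit. Each ribosome holds single copies of nearly all these proteins, and the messages are among the most abundant of any cell. Most of them begin with a C and a run of pyrimidines, the 5′ terminal oligopyrimidine (TOP) motif, through which mTOR signalling and the RNA-binding protein Larp1 set their translation and storage. A few genes have paralogs (Rpl22l1, Rps27l, Rpl36al, Rpl39l) whose products can take the partner's place or are used in particular tissues.

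The samples were innate lymphoid cells (ILCs) of C57BL/6 mice, sorted from the lamina propria of the small intestine as live CD45+, lineage-negative, CD3-, TCRβ-, CD90.2+, CD127+ cells. The Zfp36_KO library came from a pool of 4 Zfp36-/- mice and the WT library from a pool of 4 wild-type mice. The product of Zfp36, tristetraprolin (TTP), binds AU-rich elements of messages and speeds their decay. The ages of the mice are not given in the sources used here. With 1 library per genotype there is no replicate and no test: all intervals below are 95% intervals for counting error only and do not cover the spread between mice.

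The Zfp36_KO library held 3522 cell barcodes and 27733804 UMIs (unique molecular identifiers, each counting 1 captured message), and the WT library 3593 barcodes and 24721524 UMIs. After filters, 3334 Zfp36_KO and 3360 WT cells were kept, with medians of 5336.5 and 5292.5 UMIs per cell, and the libraries shared 2 barcodes. Cells were gated by how many different marker genes of a cell class had a UMI, with 8 markers for each of 8 classes. The gates held 1136 Zfp36_KO and 976 WT cells for ILC3, 1177 and 650 for ILC2, 168 and 184 for ILC1/NK, 165 and 119 for plasma/B, and 186 and 60 for macrophage. The T cell gate held 43 Zfp36_KO and 1136 WT cells. T cells go against the sort on CD3 and TCRβ, and plasma/B and macrophage cells are not the ILCs sorted for either, so every genotype comparison was made within a gate. Ratios were computed in the 5 gates with at least 50 cells in both libraries. In cells of the ILC3 gate the median cell had 4 (Zfp36_KO) and 5 (WT) of the ILC3 markers, and no other gate's list had a median over 1. In the ILC2, ILC1/NK, plasma/B and macrophage gates the highest median of another gate's list was 2 in both libraries. At least 2 markers of a second gate were found in 441 of 1136 Zfp36_KO and 520 of 976 WT cells for ILC3. For ILC2 these were 1011 of 1177 and 591 of 650 cells, and for ILC1/NK 113 of 168 and 142 of 184. For plasma/B they were 157 of 165 and 109 of 119, and for macrophage 168 of 186 and 55 of 60. Transcripts of Zfp36 itself stood at 322 CPM (UMIs of the gene scaled to 1000000 UMIs of the gated cells) in Zfp36_KO and 1193 CPM in WT cells of the ILC3 gate. Where these 3′ tags lie relative to the deleted part of the gene is not known here, so this does not check the labels.

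Ribosomal protein messages are known for the TOP motif at their 5′ end, which an annotated start can miss. The annotated starts of members that the genotype comparison turns on are shown first. Each line gives 30 bases on the gene's strand from RefSeq (GRCm38.p6), 5′ to 3′, of which base 11 is the annotated transcript start. Capitals mark the longest run that begins with C and goes on with at least 4 pyrimidines (C or T), read on the transcript strand only. The upper 7 genes lay below the members' median of Zfp36_KO over WT in all 5 gates, except Rps6 in plasma/B, and the lower 5 lay above it in all 5.
Rps18, chr17:33955646-33955675, minus strand: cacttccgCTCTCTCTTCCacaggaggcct
Rps23, chr13:90923112-90923141, plus strand: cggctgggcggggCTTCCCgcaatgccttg
Rps27, chr3:90213629-90213658, minus strand: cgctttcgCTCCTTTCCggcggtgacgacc
Rps27rt, chr9:114982720-114982749, minus strand: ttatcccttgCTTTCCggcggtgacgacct
Rps15a, chr7:118116128-118116157, minus strand: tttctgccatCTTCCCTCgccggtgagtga
Rps6, chr4:86857348-86857377, minus strand: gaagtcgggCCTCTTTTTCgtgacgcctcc
Rpl37a, chr1:72711250-72711279, plus strand: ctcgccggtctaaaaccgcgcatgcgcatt
Rps26, chr10:128626487-128626516, minus strand: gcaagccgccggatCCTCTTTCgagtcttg
Rpl39, chrX:37085203-37085232, minus strand: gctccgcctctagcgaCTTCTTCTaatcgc
Rpl22l1, chr3:28805498-28805527, plus strand: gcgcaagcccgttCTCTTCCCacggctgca
Rpl14, chr9:120571507-120571536, plus strand: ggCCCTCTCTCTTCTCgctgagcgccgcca
Rps4x, chrX:102189372-102189401, minus strand: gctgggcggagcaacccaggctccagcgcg
The run lies over or opens at base 11 in Rps18, Rps27, Rps27rt, Rps15a, Rps6 and Rpl14, begins further in for Rps23, Rps26, Rpl39 and Rpl22l1, and is missing from the windows of Rpl37a and Rps4x. These genes were picked by their ratios, and the whole set shows both positions. Of the members, 64 matched the RefSeq table by symbol. At the annotated start itself, 14 of these (21.9%) had C and at least 4 pyrimidines, against 813 of all 27025 genes in the table (3.01%). Of these 14 members 8 lay below and 6 above the members' median in ILC3, and of the 50 without the motif there 23 lay below and 27 above. The 14 split into 9 below and 5 above in ILC2, 8 and 6 in ILC1/NK, 7 and 7 in plasma/B and 10 and 4 in macrophage. Members without the motif split into 21 below and 27 above in ILC2, 22 and 26 in both ILC1/NK and plasma/B, and 21 and 28 in macrophage. Allowing the motif to begin up to 5 bases from the start, 30 members (46.9%) and 21.2% of all genes had it. A match describes letters in a window and not a site of regulation.

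The ribosomal protein genes took a smaller share of all UMIs in Zfp36_KO than in WT cells in each of the 5 gates when UMIs were summed over cells. The order of the gates depended on depth and on how cells were weighted. In cells of the ILC3 gate they took 13.35% of UMIs in Zfp36_KO (interval 13.32 to 13.38%) and 17.29% in WT (17.26 to 17.33%), a log2 ratio of -0.37. In ILC2-gated cells the share was 25.06% in Zfp36_KO and 29.95% in WT, a log2 ratio of -0.26. In ILC1/NK-gated cells it was 15.63% in Zfp36_KO and 20.03% in WT, a log2 ratio of -0.36. For plasma/B the summed share was 5.30% in Zfp36_KO and 5.94% in WT (-0.16), and for macrophage 15.85% and 16.29% (-0.04). Among cells of 2500 to 10000 UMIs the macrophage ratio was -0.24 (52 Zfp36_KO and 28 WT cells), beside -0.40 for ILC3, -0.24 for ILC2 and -0.33 for ILC1/NK. Over all kept cells, whose mix of classes differs between the libraries, the share was 16.54% in Zfp36_KO and 19.31% in WT.

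The difference ran through most ILC-gated cells. The median cell of the ILC3 gate gave 12.68% of its UMIs to ribosomal protein genes in Zfp36_KO (quartiles 11.36 and 14.16%) and 17.29% in WT (15.36 and 19.28%), so the interquartile ranges did not overlap. Of the WT cells of the ILC3 gate, 96.4% lay above the Zfp36_KO median. In ILC2-gated cells the median was 25.04% in Zfp36_KO and 29.77% in WT, and 86.8% of WT cells lay above the Zfp36_KO median. In ILC1/NK-gated cells the medians were 14.49% and 18.40%, and 86.4% of WT cells lay above the Zfp36_KO median. Cells of 1 library are not replicates, so these shares describe the pools. The plasma/B gate was mixed, since its 95th percentile cell reached 16.0% in Zfp36_KO and 30.9% in WT against medians of 4.28% and 4.72%. With each cell given equal weight the plasma/B ratio was -0.53, beside -0.42 for ILC3, and among its few cells of 2500 to 10000 UMIs it was -1.04.

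**Figure D1:**
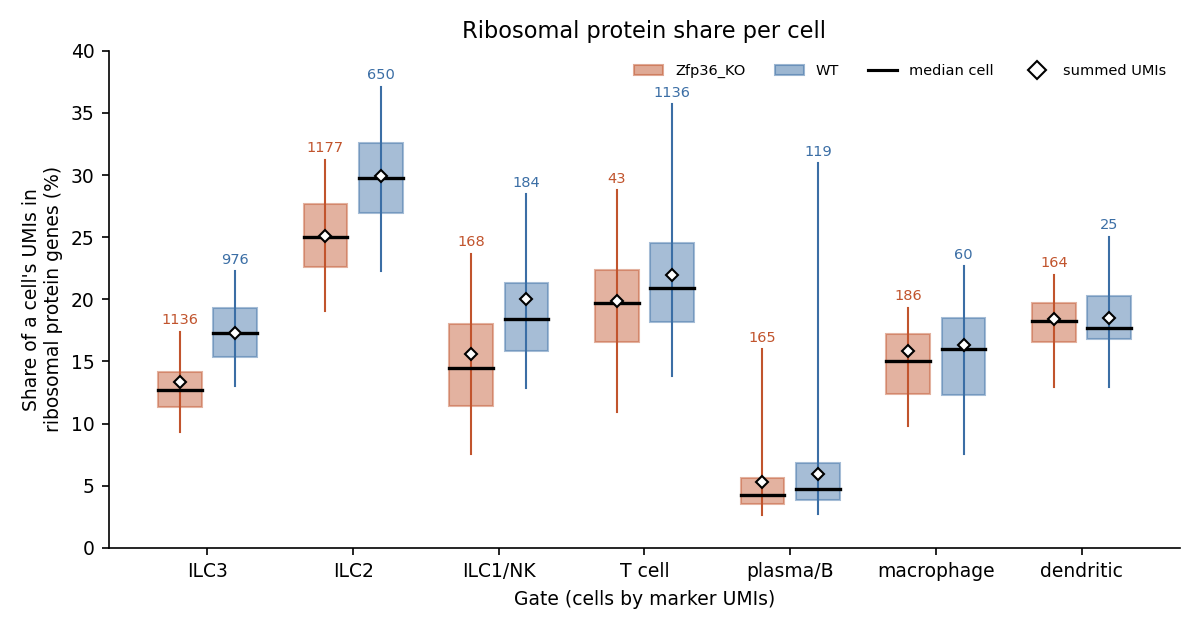
Share of each cell's UMIs in the 84 ribosomal protein genes, in percent, by gate and library. Boxes span the quartiles, whiskers the 5th to 95th percentile, black lines the median cell, diamonds the summed UMIs, and the number above each whisker is the count of cells. The Zfp36_KO box lies below the WT box in ILC3 (medians 12.68% and 17.29%) and the boxes overlap in the other gates.

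In counts per cell, the median cell of the ILC3 gate held 483.5 ribosomal protein UMIs in Zfp36_KO and 779 in WT, and 3339 and 3754.5 UMIs of all other genes. In ILC2-gated cells the medians were 1456 and 1878 ribosomal protein UMIs, with 4364 and 4436 of all others. Depth per cell therefore differed between the libraries, at a median of 3849 UMIs in Zfp36_KO and 4536 in WT for ILC3 and, in the other direction, 14166 and 8446.5 for macrophage. Within ranges of depth the median share was lower in Zfp36_KO in all 11 bins that held at least 20 cells of both libraries, with differences of -0.33 to -7.14 percentage points. For cells of the ILC3 gate of 2500 to 5000 UMIs it was 12.61% in Zfp36_KO and 17.75% in WT. The bin above 10000 UMIs, the only one for plasma/B and also used for macrophage and ILC2, has no upper end, so depth can still differ within it. The difference appeared in each division of the ILC3 gate by receptor UMIs. Cells with Ccr6, a chemokine receptor of lymphoid tissue inducer cells, and without Ncr1 had shares of 12.98% in Zfp36_KO and 17.92% in WT. Cells with Ncr1, the natural cytotoxicity receptor NKp46, and without Ccr6 had shares of 13.52% and 16.60%.

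Signs of RNA quality also moved between the libraries. Mitochondrial UMIs made up 5.88% of all UMIs in Zfp36_KO and 5.40% in WT cells of the ILC3 gate, and 5.93% and 5.15% in ILC2-gated cells. Leaving them out of the total gave a log2 ratio of the share of -0.37 for ILC3 and -0.25 for ILC2. The rRNA-derived transcript AY036118 stood at 12.2 CPM in Zfp36_KO and 73.0 CPM in WT cells of the ILC3 gate, and at 31.1 and 69.5 CPM in ILC2-gated cells. Gm42418, which also holds rRNA sequence, stood at 777 CPM in Zfp36_KO and 879 CPM in WT for ILC3 but, in the other direction, at 1162 and 734 CPM for ILC2 and at 1892 and 1313 CPM for macrophage. Summed T cell marker UMIs were also lower in Zfp36_KO, at 512 CPM against 821 CPM in WT cells of the ILC3 gate, with a median of 1 of 8 T cell markers per cell in both. Summed macrophage marker UMIs were higher in Zfp36_KO, at 138 CPM against 41.3 CPM in WT for ILC3, 59.6 against 13.0 CPM for ILC2 and 220 against 40.1 CPM for ILC1/NK, with a median of 0 of 8 macrophage markers per cell for ILC3 and ILC2. The part of these rRNA-derived transcripts and of T cell and macrophage RNA in the result was not tested. With cells holding at least 2 markers of any second gate left out, the ratio was -0.47 for ILC3 (695 Zfp36_KO and 456 WT cells) and -0.21 for ILC2 (166 and 59 cells). The same restriction left 8 and 10 cells for plasma/B and 18 and 5 for macrophage, where the sign turned to 0.25 and 0.27.

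Among single genes, 49 of the 84 ribosomal protein genes were at least 20% lower in Zfp36_KO than in WT cells of the ILC3 gate and 0 were at least 25% higher. Of all 9641 genes measured there, 11.3% were that much lower and 34.3% that much higher, and of the genes with at least 1000 UMIs 13.7% were lower. The members' median log2 ratio was -0.36, beside a median of 0.16 over all measured genes. These abundant messages enter the total, so a fall in their share raises the summed CPM of all other genes. That summed CPM had a log2 ratio of 0.07 in ILC3, smaller than the median of 0.16 over all measured genes. What underlies the larger shift of that median was not tested. Set against the median of all genes, 73 members were lower and 0 higher. The share of all genes lower on that scale is not given here, so the 73 has no matching background. In ILC2-gated cells 28 of 83 measured members were lower and 0 higher, beside 9.54% and 36.1% of all genes and 10.2% lower among genes with at least 1000 UMIs. In ILC1/NK-gated cells 48 of 83 were lower and 0 higher, beside 14.1% and 31.9% of all genes and 26.6% lower among genes with at least 1000 UMIs. In plasma/B-gated cells 14 of 83 were lower and 0 higher, beside 10.3% and 44.6% of all genes. In macrophage-gated cells 6 of 83 were lower and 1 higher, beside 14.9% and 37.2% of all genes, a share of lower members below the background. All these comparisons share their 2 libraries. Of the 83 members measured in all 5 gates, 46 had a negative log2 ratio in each.

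**Figure D2:**
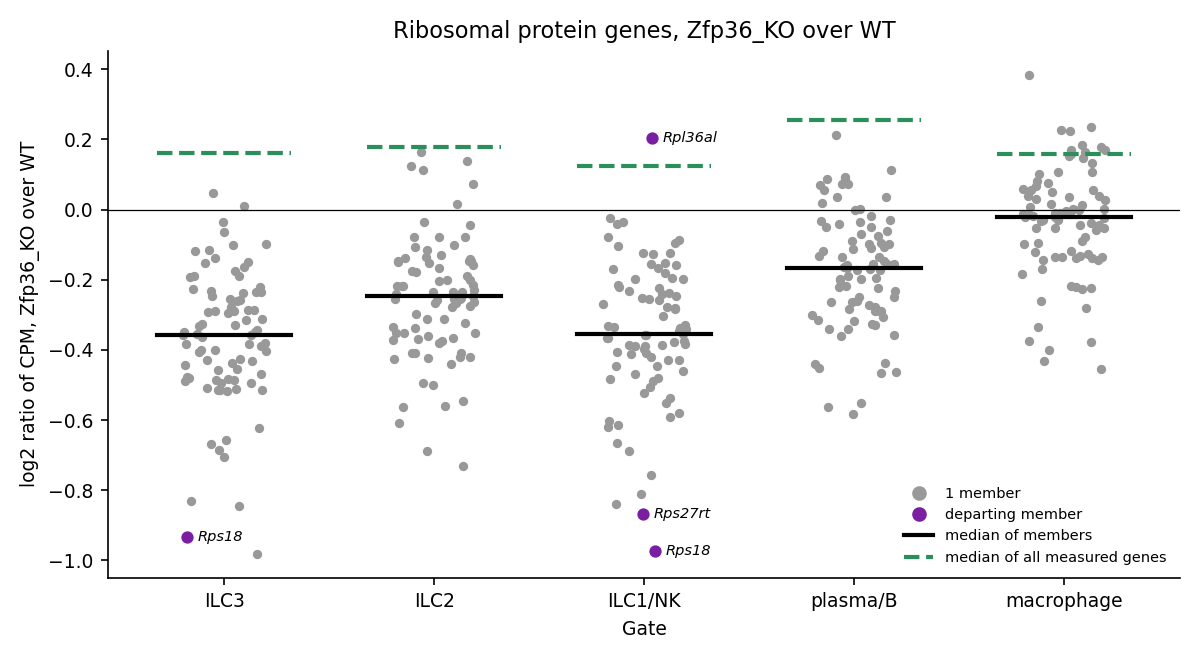
Log2 ratio of CPM, Zfp36_KO over WT, of each ribosomal protein gene (1 point per gene) in the 5 gates, with the median of the members (black line) and of all measured genes (green dashes). Purple points are members that lie at least 0.5 from the members' median with an interval that excludes it, and the unmarked point at -0.98 in ILC3 is Rpl39l, whose interval is too wide for that. The members' median lies below that of all genes in each gate, by 0.52 in ILC3 and 0.18 in macrophage.

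Both subunits were lower in Zfp36_KO. In cells of the ILC3 gate 28 of 50 genes named for the large and 21 of 34 named for the small subunit were at least 20% lower in Zfp36_KO. The share over all genes there was 11.3%, and the summed log2 ratios of the subunits were -0.35 and -0.40. In ILC2-gated cells the counts were 12 of 49 and 16 of 34, beside 9.54% of all genes, with summed ratios of -0.24 and -0.28. Rpl7l1 and Rps19bp1 are counted here by name. Across cells of the ILC3 gate the shares of the 2 subunits had a Spearman correlation of 0.84 in Zfp36_KO and 0.88 in WT cells; both shares are fractions of the same cell's UMIs, so this is a description of the cells.

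The lowest ratios among well-counted members were those of small-subunit genes. Rps18, a protein of the small subunit head (chr17:33951999-33956001, mm10, minus strand, 5 exons), had 5718 UMIs (1162 CPM) in Zfp36_KO and 10366 UMIs (2218 CPM) in WT cells of the ILC3 gate, a log2 ratio of -0.93 (-0.98 to -0.89). It was the only member of the ILC3 gate that lay at least 0.5 below the members' median with an interval clear of it. In ILC2-gated cells Rps18 stood at 2645 CPM in Zfp36_KO and 4388 CPM in WT, a log2 ratio of -0.73, which lay -0.48 from the members' median, and in that gate 0 members departed by 0.5. In ILC1/NK-gated cells it stood at 1429 CPM in Zfp36_KO and 2805 CPM in WT (-0.97). Its near copies listed in the files, Gm10260 and Gm11361, had 10 and 27 UMIs in Zfp36_KO and WT cells of the ILC3 gate, and adding them left the ratio at -0.93.

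Rps23, a decoding-site protein (chr13:90922958-90924950, plus strand), stood at 1227 CPM in Zfp36_KO and 2202 CPM in WT cells of the ILC3 gate, a log2 ratio of -0.84 (-0.89 to -0.80). In ILC2-gated cells it stood at 2198 and 3539 CPM (-0.69). Rps27, a zinc-finger protein of the small subunit (chr3:90212522-90213651, minus strand), stood at 2314 CPM in Zfp36_KO and 4113 CPM in WT cells of the ILC3 gate (-0.83) and at 3886 and 5930 CPM in ILC2-gated cells (-0.61). Rps29, a further zinc-binding protein (chr12:69157722-69159186, minus strand), stood at 2926 and 4766 CPM in cells of the ILC3 gate (-0.70). Together with the large-subunit gene Rpl37a these 4 made up the 5 members that lay at least 0.25 below the members' median in all 5 gates, macrophage and plasma/B included. In macrophage-gated cells, where the members' median was -0.02, Rps27 was at -0.46, Rps29 at -0.43, Rps23 at -0.38, Rpl37a at -0.33 and Rps18 at -0.28.

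At the other end, Rps26 (chr10:128624534-128626747, minus strand) stood at 1430 CPM in Zfp36_KO and 1384 CPM in WT cells of the ILC3 gate, a log2 ratio of 0.05 (-0.00 to 0.10). In ILC2-gated cells it stood at 2875 and 2657 CPM (0.11) and in plasma/B-gated cells at 615 and 531 CPM (0.21). Rpl39, which lines the peptide exit tunnel, stood at 3398 CPM in Zfp36_KO and 3482 CPM in WT cells of the ILC3 gate (-0.04) and at 7274 and 6488 CPM in ILC2-gated cells (0.17). The X-linked Rps4x was at -0.10 in ILC3 and at -0.04 in ILC2. Rpl39 is X-linked too, while the X-linked Rpl10 and Rpl36a lay below the members' median in ILC3, at -0.51 and -0.40. The pools differed in sex-linked transcripts: 893 of 1136 Zfp36_KO and 969 of 976 WT cells of the ILC3 gate had an Xist UMI and no Y-linked UMI, and 923 of 1177 and 647 of 650 of the ILC2 gate. In all, 21 members lay below the members' median in every gate and 25 above it in every gate. The gates share the 2 libraries, so this is the order of the genes in 1 pair of pools and not 5 measurements of it. In ILC1/NK-gated cells 3 members departed by 0.5, namely Rps18, Rps27rt at -0.87 (71 and 161 UMIs) and Rpl36al at 0.20 (304 and 328 UMIs, interval -0.03 to 0.43). Rps27rt is a near copy of Rps27, which was at -0.76 in that gate, so its value may not be a separate measurement. Rps27rt no longer departed with all deposited barcodes, with only cells of Xist and no Y-linked UMI, or without cells holding 2 markers of a second gate. Rpl36al no longer departed with each cell given equal weight, where Rps23 and Rps19bp1 did. Rps18 departed under each of these settings.

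**Figure D3:**
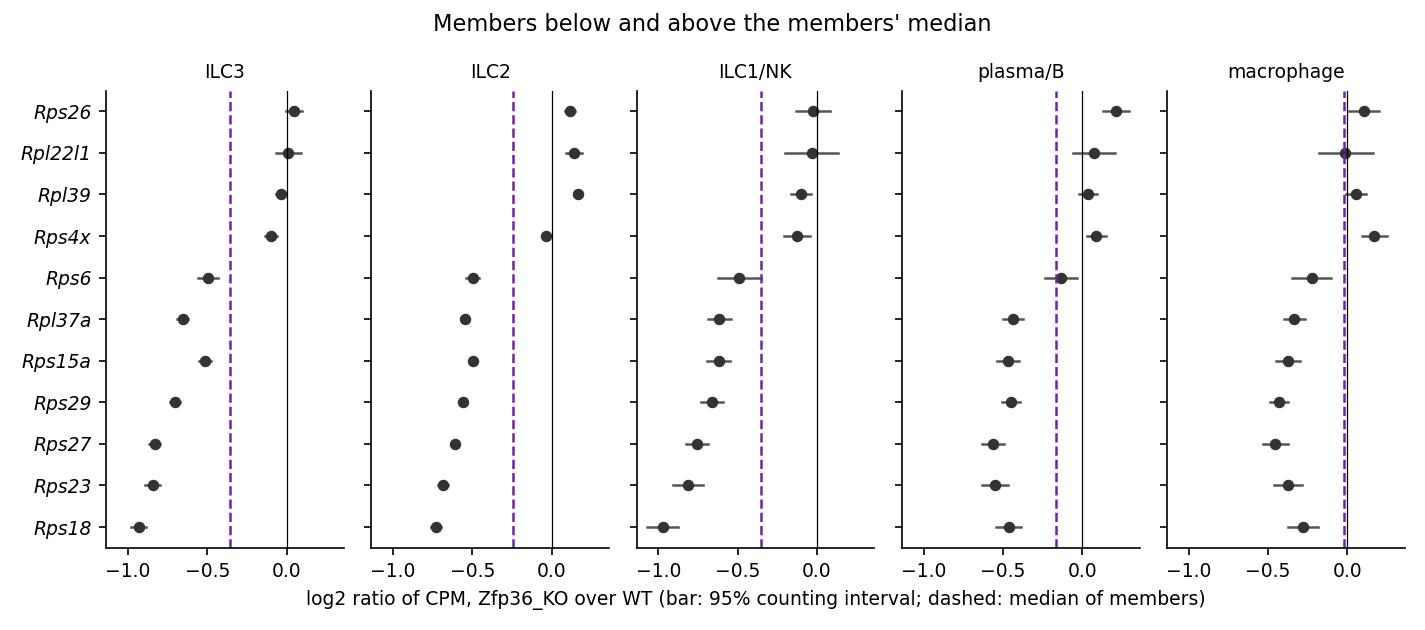
Log2 ratio of CPM, Zfp36_KO over WT, with its 95% counting interval, for 4 members high and 7 members low within the set, in each gate. The dashed line is the median of all members of the gate. Rps18, Rps23, Rps27, Rps29 and Rpl37a lie left of it and Rps26 and Rps4x right of it in every gate.

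Genes with special roles followed the set to different degrees. The stalk of the large subunit, which recruits translation factors, is built from Rplp0, Rplp1 and Rplp2. Rplp1 stood at 3201 CPM in Zfp36_KO and 4464 CPM in WT cells of the ILC3 gate (-0.48) and Rplp2 at 1517 and 2045 CPM (-0.43), while their anchor Rplp0 stood at 1836 and 2075 CPM (-0.18). Rpsa, which is also known as a laminin receptor, stood at 2339 and 2595 CPM (-0.15). Rps6, the target of the S6 kinases, stood at 695 CPM in Zfp36_KO and 979 CPM in WT (-0.49), and at 1410 and 1992 CPM in ILC2-gated cells (-0.50). Rps27a, made as a fusion with ubiquitin, had a log2 ratio of -0.33 in ILC3, and Rpl10, a late-joining protein of the large subunit, of -0.51. Of the ribosomal proteins outside the naming rule, Fau was at -0.25 and Rack1 at -0.16 in cells of the ILC3 gate. Rps19bp1 and Rpl7l1 are taken in by their names but are not subunits of the standard ribosome. Rpl7l1 stood at 62.0 CPM in Zfp36_KO and 68.3 CPM in WT cells of the ILC3 gate, with an interval that held 0 (-0.37 to 0.09).

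Cells of the ILC2 gate and those of the ILC3 gate differed more than the genotypes did. In cells of the ILC2 gate over those of the ILC3 gate the members' median log2 ratio was 0.84 within the Zfp36_KO library and 0.73 within the WT library, and 79 and 78 of 83 members were at least 25% higher, beside 13.0% and 11.8% of all genes. The acidic stalk gene Rplp1 stood furthest above the others, at 9201 CPM in the ILC2 gate and 3201 CPM in the ILC3 gate of Zfp36_KO (log2 ratio 1.52) and at 11980 and 4464 CPM in WT (1.42). Rps20 followed at 1.35 in Zfp36_KO and 1.31 in WT. Rps27l went the other way, at -0.53 in Zfp36_KO and -0.35 in WT, as did Rps19bp1 (-0.48 and -0.75). The 2 libraries come from separate mice, and across the 83 members the differences had a Pearson correlation of 0.97 and a Spearman correlation of 0.95 between libraries. Genes are not independent replicates, and both libraries share the marker gates. In cells of the ILC1/NK gate over those of the ILC3 gate the members' median was 0.21 in Zfp36_KO and 0.20 in WT, with 24 and 16 members at least 25% higher, beside 15.5% and 16.2% of all genes.

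**Figure D4:**
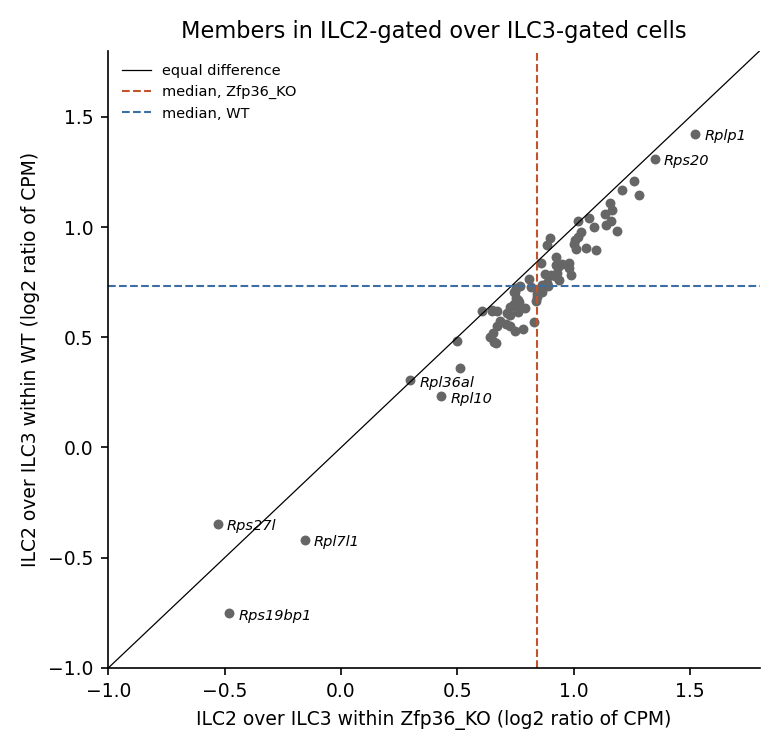
Log2 ratio of CPM in cells of the ILC2 gate over those of the ILC3 gate for 83 ribosomal protein genes, within the Zfp36_KO library (x axis) and within the WT library (y axis). Dashed lines are the members' medians, 0.84 in Zfp36_KO and 0.73 in WT, and the solid line marks equal values. Rplp1 and Rps20 lie at the upper end, and Rps27l, Rps19bp1 and Rpl7l1 lie below 0 in both libraries.

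In plasma/B-gated cells, rich in immunoglobulin messages, the members' median against cells of the ILC3 gate was -1.36 in Zfp36_KO and -1.59 in WT. The median of all measured genes lay lower still, at -2.04 and -2.16, so the members fell less than the typical gene. Unlike most members, Rps27l was higher than in cells of the ILC3 gate, at 0.44 in Zfp36_KO and 0.47 in WT, and so was Rpl36al, at 0.40 and 0.30. Rpl41, which encodes a very short peptide, was at -0.10 and -0.35, while Rpl21 was at -2.17 and -2.32. In the WT library T cells could be set against cells of the ILC3 gate, and there Rpl12 (0.89) and Rpsa (0.85) lay highest. The members' median was 0.33, beside -0.22 for all measured genes. Below 0 lay 6 members, namely Rpl39l (-3.43, 6 and 45 UMIs), Rps19bp1 (-0.73), Rpl7l1 (-0.60), Rps27l (-0.44), Rpl10 (-0.40) and Rpl21 (-0.17).

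The paralog shares of the gates differed. Rpl22l1 gave 31.7% of the UMIs of the pair with Rpl22 in Zfp36_KO (30.7 to 32.7%) and 25.3% in WT (24.5 to 26.2%) cells of the ILC3 gate, and 39.3% and 32.8% in ILC2-gated cells. The intervals of the genotypes were apart in ILC3, ILC2, ILC1/NK, plasma/B and dendritic-gated cells, and overlapped for macrophage, at 30.9% and 29.03%, and in T cells. The level of Rpl22l1 itself was 544 CPM in Zfp36_KO and 540 CPM in WT cells of the ILC3 gate (log2 ratio 0.01), while Rpl22 stood at 1172 and 1593 CPM (-0.44). For ILC2, Rpl22l1 stood at 1197 and 1086 CPM (0.14) and Rpl22 at 1850 and 2222 CPM (-0.26). Rps27l, a p53 target, gave 25.3% of the pair with Rps27 in Zfp36_KO and 21.4% in WT plasma/B-gated cells, against 2.59% and 2.26% in ILC2-gated cells. Rpl36al gave 54.0% of the pair with Rpl36a in Zfp36_KO and 50.02% in WT plasma/B-gated cells, and 16.1% and 15.5% in ILC2-gated cells. Rpl39l, best known from male germ cells, had 24 UMIs in 22 Zfp36_KO and 45 UMIs in 34 WT cells of the ILC3 gate, and 6 and 3 UMIs in ILC2-gated cells. At 1.94% and 3.48% of cells of the ILC3 gate it was a rare message, with 0.352% of WT T cells having a UMI at median depths of 4536 (ILC3) and 5059 UMIs (T cells). The interval of its ILC3 ratio ran from -1.76 to -0.24. The muscle and testis paralogs Rpl3l and Rpl10l had 13 and 2 UMIs over both libraries and fell under the minimum, while Rpl39l with 100 UMIs lay above it. Rps27rt is a near copy of Rps27 and their reads could be split between them, so the value of Rps27rt is uncertain. Of the 84 genes, 44 had a near copy at their 3′ end in the annotation and 15 had one listed in the files. Rpl7l1 matched a stretch of Cd9, which is no ribosomal protein gene.

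**Figure D5:**
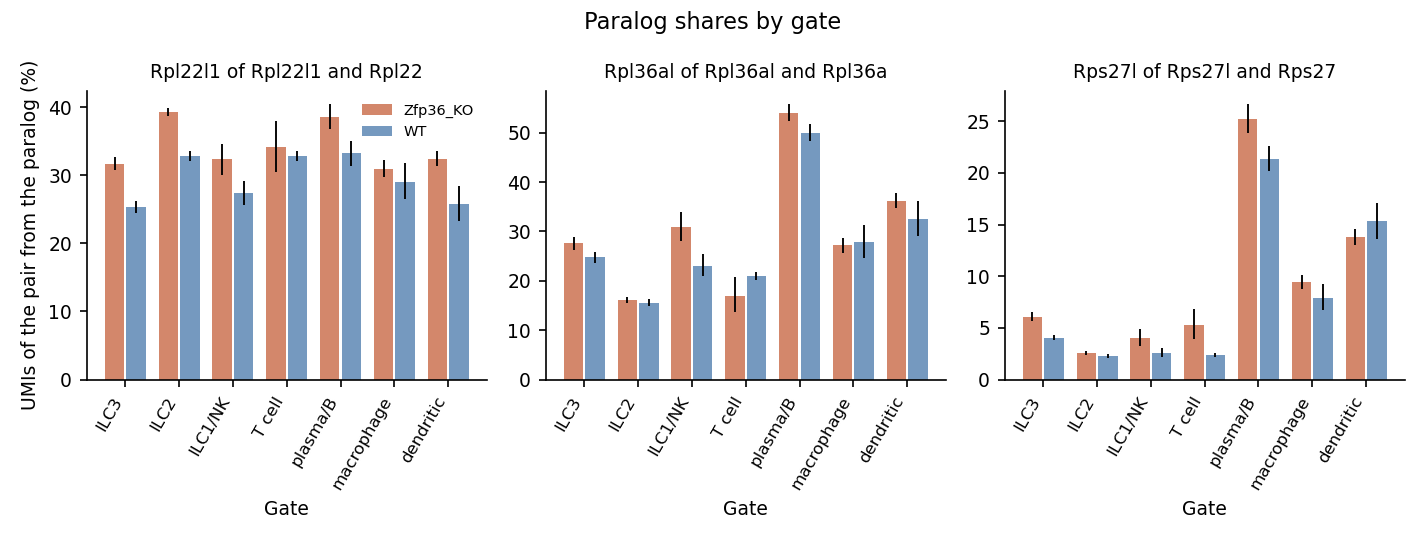
Share of a paralog pair's UMIs that came from the paralog, in percent, by gate, with Zfp36_KO left of WT and exact 95% binomial intervals. Rps27l and Rpl36al have their highest shares in plasma/B-gated cells of both libraries, and the Rpl22l1 share is higher in Zfp36_KO than in WT in each gate shown.

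Other genes of protein synthesis are given beside the background of the ILC3 gate, where 34.3% of all genes were at least 25% higher and 11.3% at least 20% lower, with a median of 0.16. Of 19 translation factors and partners whose messages also carry TOP motifs, 6 (31.6%) were lower and 2 (10.5%) higher in Zfp36_KO cells of the ILC3 gate, with a median log2 ratio of -0.09. The lower share was near that of all genes in ILC2 (10.5% beside 9.54%) and in ILC1/NK (15.8% beside 14.1%). In plasma/B and macrophage 0 of the 19 were lower, beside 10.3% and 14.9% of all genes. Tpt1, an abundant TOP message of a growth-related protein, stood at 5230 CPM in Zfp36_KO and 7242 CPM in WT cells of the ILC3 gate (-0.47). The elongation factor gene Eef1a1 stood at 5904 and 6298 CPM there (-0.09). The elongation factor gene Eef2 stood higher, at 1055 CPM in Zfp36_KO and 773 CPM in WT (0.45), and at 1816 and 1230 CPM in ILC2-gated cells (0.56). Of 22 other initiation factor genes 7 (31.8%) were higher and 3 (13.6%) lower in ILC3, both near the background. Eif4g1, the scaffold of cap-dependent initiation, stood at 143 and 83.7 CPM (0.77) and Eif3a at 474 and 288 CPM (0.72). Of 25 ribosome biogenesis genes 11 (44.0%) were higher and 0 lower in ILC3, with a median of 0.29, among them the small nucleolar RNP gene Nop58 at 119 and 65.9 CPM (0.85). Their median was 0.21 in ILC2, beside 0.18 for all genes, and 0.02 in ILC1/NK, beside 0.12. In plasma/B it was 0.36, beside 0.25 for all genes, and in macrophage 0.42, beside 0.16. Of 17 cytosolic tRNA synthetase genes 8 (47.1%) were higher and 0 lower in ILC3, with a median of 0.31. Larp1 stood at 59.1 CPM in Zfp36_KO and 49.4 CPM in WT cells of the ILC3 gate (0.26, interval 0.00 to 0.51), and at 103 and 67.5 CPM in ILC2-gated cells (0.61). Of 77 measured mitochondrial ribosomal protein genes, which form a separate ribosome, 13 (16.9%) were lower and 5 (6.49%) higher, with a median of -0.15. Among 15 genes known to respond to cell dissociation 5 (33.3%) were lower and 1 (6.67%) higher, with Junb at 4557 CPM in Zfp36_KO and 7577 CPM in WT (-0.73), and their part in the result was not tested.

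Measured features of the genes went only weakly with their order. Across 84 members the distance from the members' median in ILC3 had Spearman correlations of 0.15 with the length of the longest coding transcript, -0.00 with the GC content of its last 300 bases and 0.11 with the number of near copies. The members lie on 19 chromosomes, with 14 on chromosome 7 and 4 on the X chromosome, and all 84 matched the annotation by identifier.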

How the data were processed

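Counts of UMIs per gene and cell barcode were deposited by the authors for 2 pooled libraries; per the file headers they come from Cell Ranger 3.1.0 and per the submitters' processing notes from build mm10, and per the labels from the 10x Genomics Chromium Single Cell 3′ v2 kit. The deposited counts are raw, with no normalization. From there, barcodes with at least 500 genes and at most 10% mitochondrial UMIs were kept, and doublets predicted by Scrublet (scanpy 1.11.5, each library alone) were removed. Scrublet marked 0.150% of Zfp36_KO and 1.09% of WT cells, so few doublets were removed. A cell took the gate of which it had UMIs of the most different markers, if at least 2 and more than for any other gate. UMIs were summed over gated cells and scaled to CPM. Log2 ratios have exact 95% intervals from the binomial split of UMIs between libraries, shares have Clopper-Pearson intervals, a count of 0 was set to a floor of 3, and ratios need at least 50 UMIs in the gate. PCR copies are removed through the UMIs; intervals cover counting error only, and a 3′ tag counts messages without regard to length. A member was called lower at 20% less and higher at 25% more and departing at 0.5 (log2) from the members' median with an interval excluding it. The computation was tested on simulated data. Genes were named by rank: in each gate the 5 members highest and the 5 lowest against the members' median by the nearer interval end, all paralog pairs, role genes fixed by name, and up to 3 genes of each other list. Members named between gates, Gm10076 and, for ILC3, Eef1a1 and Larp1 were chosen after their values were seen. Members, gates and lists were chosen with earlier results of these data known. Positions and near copies (blastn 2.17.0, at least 98% identity over 90 of the last 300 bases) come from GENCODE vM21, which matched 30934 of 31053 features, and start sites from RefSeq. Single-gene values of some genes are not reported here.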

Additional observations from a re-analysis of the deposited data

Results flagged for a closer look

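For 10 named ribosomal protein genes the Zfp36_KO over WT ratio lay above 0 in some gates and below 0 in others, with counting intervals clear of 0 on both sides. Each genotype is 1 library, so the difference between gates was not tested, and the macrophage gate also differs in depth per cell between the libraries. Rps4x was at 0.17 in macrophage and 0.088 in plasma/B, and at -0.098 in ILC3, -0.037 in ILC2 and -0.13 in ILC1/NK. Rps2 was at 0.23 in macrophage and 0.093 in plasma/B, and at -0.19 in ILC3, -0.15 in ILC2 and -0.22 in ILC1/NK. Rpl6 was at 0.16 in macrophage and 0.090 in plasma/B, and at -0.11 in ILC3 and -0.078 in ILC2. Rps10 was at 0.18 in macrophage, and at -0.29 in ILC3, -0.079 in ILC2, -0.28 in ILC1/NK and -0.095 in plasma/B. Rpl18 was at 0.18 in macrophage, and at -0.23 in ILC3, -0.078 in ILC2 and -0.17 in ILC1/NK. Rplp0 was at 0.11 in macrophage, and at -0.18 in ILC3, -0.13 in ILC2 and -0.30 in ILC1/NK. Rpsa was at 0.11 in macrophage, and at -0.15 in ILC3, -0.11 in ILC2 and -0.20 in ILC1/NK. Rpl14 was at 0.15 in macrophage, and at -0.10 in ILC3 and -0.045 in ILC2. In ILC2 itself, Rps15 was at 0.072 (with 0.23 in macrophage, -0.12 in ILC3 and -0.17 in ILC1/NK) and Rpl39 at 0.17 (with -0.035 in ILC3 and -0.10 in ILC1/NK).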

How the results depend on the processing

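The lower ribosomal protein share in Zfp36_KO kept its direction under all alternatives in ILC3, ILC2 and ILC1/NK. Giving each cell equal weight gave log2 ratios of -0.42 (ILC3), -0.25 (ILC2), -0.53 (plasma/B) and -0.077 (macrophage). Leaving mitochondrial UMIs out gave -0.37 (ILC3), -0.25 (ILC2) and -0.15 (plasma/B). Cells of 2500 to 10000 UMIs gave -0.40 (ILC3), -0.24 (ILC2), -0.33 (ILC1/NK), -1.04 (plasma/B, 13 Zfp36_KO and 14 WT cells) and -0.24 (macrophage). Cells with Xist and no Y-linked UMI (for macrophage 109 of 186 Zfp36_KO and 55 of 60 WT cells) gave -0.34 (ILC1/NK) and -0.18 (plasma/B). Without cells that hold 2 markers of a second gate, chosen after seeing the data, the values were -0.47 (ILC3), -0.21 (ILC2) and -0.44 (ILC1/NK), and they reversed to 0.25 (plasma/B, 8 and 10 cells) and 0.27 (macrophage, 18 and 5 cells), with few cells left; the cause was not tested. Reversed there too were Rpl36a (0.43) and Rps14 (0.018) in plasma/B and Rps27 (0.15), Rps15a (0.37) and Rps23 (0.86) in macrophage.

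The count of members at least 20% lower moved by over 1.5 times under scaling to UMIs outside members and mitochondria (47 in ILC2), relative to the median of all genes (65 in ILC2, 61 in plasma/B, 14 in macrophage), with equal weight per cell (68 in plasma/B), for 2500 to 10000 UMIs (74 in plasma/B, 23 in macrophage) and without second-gate cells (4 in plasma/B). The share of all genes lower under these settings is not given here, so these counts have no matching background. Departing members at a distance of 0.25 numbered 14 (ILC3), 13 (ILC2), 16 (ILC1/NK), 12 (plasma/B) and 7 (macrophage), and 0 at a distance of 1 in ILC3 and ILC1/NK. They numbered 3 (ILC3), 7 (plasma/B) and 1 (macrophage) for 2500 to 10000 UMIs, 3 (plasma/B) and 1 (macrophage) with equal weight, and 2 (ILC2), 14 (plasma/B) and 4 (macrophage) without second-gate cells.

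Rps27rt, with 71 and 161 UMIs in ILC1/NK, and the 60 WT macrophage-gated cells limit the precision there. No paired analysis was possible because each genotype has 1 pooled library. Leaving out a replicate was not possible for the same reason.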

Other observations

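Cells outside the 5 compared gates showed the following values. Dendritic-gated cells gave 18.40% of their UMIs to ribosomal protein genes in Zfp36_KO (164 cells) and 18.53% in WT (25 cells). T-cell-gated cells gave 19.87% in Zfp36_KO (43 cells) and 21.98% in WT (1136 cells). Ungated cells gave 18.23% in Zfp36_KO (295 cells) and 19.85% in WT (208 cells). The 9 rows marked -ps, left out of the set, summed to 157 CPM in Zfp36_KO and 195 CPM in WT kept cells. Gm10076, a near copy of Rpl41, had 513 UMIs in Zfp36_KO and 938 UMIs in WT cells of the ILC3 gate (log2 ratio -0.95), while Rpl41 itself was at -0.25. Gm10076 was also lower in the other compared gates, at -0.84 in ILC2, -1.04 in ILC1/NK, -0.77 in plasma/B and -0.69 in macrophage. Rpl41 was at -0.16, -0.13, 0.00 and -0.01 there. What underlies this was not tested.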
